A study of Mus musculus with 13 samples.

Results

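The T cell receptor variable (V) segments are the rows that the deposited table of estimated counts marks with the biotype TR_V_gene, 77 of its 21084 genes. By symbol they fall into 7 Trgv, 5 Trdv, 43 Trav and 22 Trbv segments, and 8 of the Trav symbols also carry a dv name because the segment can join to the delta chain. After a filter on low counts, 48 of the 77 could be tested: all 7 Trgv, 4 of 5 Trdv, 17 of 43 Trav and 20 of 22 Trbv. The libraries were bulk RNA sequencing of sorted gamma delta intraepithelial lymphocytes (IELs) from the small intestine of wild-type (WT) mice, made with a SMART-Seq HT kit. UC7-IFNa (3 libraries) had received UC7-13D5, an antibody against the gamma delta receptor, at 200 µg into the peritoneum 48 and 24 hours before isolation, and 1 µg of interferon alpha (IFNa) into a vein 5 hours before it. UC7-PBS (3 libraries) had the same antibody and phosphate buffered saline (PBS). IgG-IFNa (4 libraries) had Armenian hamster IgG at the same dose and times, and then IFNa. IgG-PBS (3 libraries) had that IgG and PBS. All groups therefore carried a hamster antibody. The series' own design text gives the antibody times as alternatives, so whether each mouse had both injections is unclear, and mouse age and the number of mice per library were not given in the sources used here.

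A T cell receptor is a pair of chains, gamma with delta or alpha with beta, and each chain is made by joining 1 V segment to a joining segment, with a diversity segment between them in delta and beta. The V segment supplies most of the part that meets the ligand. In the mouse the gamma V segments sit in clusters, each beside its own constant gene. Gamma delta IELs of the mouse small intestine are known for using Trgv7, while Trgv5 is known from skin and Trgv6 from the reproductive tract and dermis. Alpha chain segments of the Trav15-dv6 family also serve delta chains. Counts per V segment add up all cells that use it and any unjoined transcripts. Joined reads, joining segments and clones were not analysed here.

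The stretch around the conserved cysteine near the end of each V segment shows how far the gamma segments can be told apart by sequence. Each line gives 90 bases of the coding part, 5′ to 3′, read from the GENCODE M21 transcript, with the cysteine codon in capitals.
Trgv7: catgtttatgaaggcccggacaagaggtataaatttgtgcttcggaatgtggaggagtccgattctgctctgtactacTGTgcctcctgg
Trgv2: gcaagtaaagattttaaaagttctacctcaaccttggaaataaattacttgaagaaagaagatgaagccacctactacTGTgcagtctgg
Trgv1: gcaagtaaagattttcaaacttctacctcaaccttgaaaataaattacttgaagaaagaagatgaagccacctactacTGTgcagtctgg
Trgv3: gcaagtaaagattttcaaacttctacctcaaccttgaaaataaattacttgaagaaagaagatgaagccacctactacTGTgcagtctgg
Trgv4: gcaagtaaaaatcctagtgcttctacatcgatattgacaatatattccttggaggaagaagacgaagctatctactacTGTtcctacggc
Trgv5: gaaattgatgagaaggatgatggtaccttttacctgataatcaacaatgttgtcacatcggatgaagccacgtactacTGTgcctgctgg
Trgv6: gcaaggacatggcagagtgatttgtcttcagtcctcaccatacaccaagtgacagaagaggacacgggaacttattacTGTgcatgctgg
The stretches of Trgv1 and Trgv3 were the same in every letter. Over the whole coding part Trgv1 and Trgv2 were 95.1% identical, Trgv1 and Trgv3 94.9%, and Trgv2 and Trgv3 93.8%. Trgv7 was at most 53.5% identical to any other gamma segment, and Trgv4 at most 60.8%. Estimated counts were fractional for Trgv1 in 4 libraries and for Trgv3 in 5, so how reads were split over these near copies is uncertain. They were whole in all 13 libraries for Trgv2, Trgv4, Trgv5, Trgv6 and Trgv7.

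Segments of the other subgroups are shown in the same way: the 2 highest Trdv segments, the leading Trav segment, Trav14-3, which edgeR called in 1 comparison, and Trbv13-1, the highest Trbv segment per length.
Trdv2-2: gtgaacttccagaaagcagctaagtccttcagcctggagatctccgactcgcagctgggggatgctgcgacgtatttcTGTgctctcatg
Trdv4: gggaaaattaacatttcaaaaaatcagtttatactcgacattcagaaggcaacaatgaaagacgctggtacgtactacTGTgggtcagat
Trav15d-1-dv6d-1: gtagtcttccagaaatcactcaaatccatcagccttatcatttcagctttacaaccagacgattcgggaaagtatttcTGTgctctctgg
Trav14-3: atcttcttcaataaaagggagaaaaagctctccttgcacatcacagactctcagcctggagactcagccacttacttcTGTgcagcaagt
Trbv13-1: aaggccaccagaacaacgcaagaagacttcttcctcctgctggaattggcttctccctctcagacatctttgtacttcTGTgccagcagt
A cysteine codon after a codon for tyrosine or phenylalanine was found within the last 30 bases of the coding part in 56 of the 77 segments, and it was TGT in 48 of them. Among Trav segments the triplicated locus leaves copies: 6 pairs had identical coding parts, and Trav15n-2 and Trav15d-2-dv6d-2, 1 of these pairs, had equal estimated counts in 10 of 13 libraries. Values of such copies cannot be told apart and are uncertain one by one.

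Library totals ran from 19867201 to 26895876 estimated counts. Levels below are CPM, read counts relative to the library total, scaled by trimmed mean of M values (TMM), levels of different genes are ranked per kilobase of transcript (CPM per kb), and shares are shares of counts. In bulk libraries, fewer cells using a segment and less RNA per cell cannot be told apart. Libraries of the 2 antibodies also differed in sex-linked transcripts. Xist made up at most 0.36% of Xist plus Y-linked counts in the 6 UC7-13D5 libraries, 99 and 99.2% in IgG-IFNa libraries 1 and 2, 24.5 and 6.81% in IgG-IFNa libraries 3 and 4, and 99.9% in each IgG-PBS library. Antibody and sex-linked transcripts therefore cannot be told apart in the comparisons of UC7-13D5 with IgG. IFNa after IgG, and with it the IFNa average, is partly confounded too, because IgG-IFNa libraries 3 and 4 differed from IgG-PBS in these transcripts. UC7-IFNa library 2 stood apart in ribosomal RNA, with 1.14% Rn18s against at most 0.333% in the others. All 12 genes of the gamma delta IEL list were in the file. The summed level of this list was 14000 to 19700 CPM in UC7-IFNa, 12400 to 14400 in UC7-PBS, 14000 to 15100 CPM in IgG-IFNa and 11800 to 14100 CPM in IgG-PBS. Its highest genes, Cd3g, Cd8a and Itgae (means of 2780, 2310 and 1680 CPM), are also carried by other T cells, so the sum does not settle the label. Trgc1, Trgc2 and Trgc4 averaged 1670, 964 and 596 CPM, and Trdc 188 CPM. Alpha beta transcripts were present too. All 10 genes of that list were in the file, with sums of 1900 to 2880 CPM in UC7-IFNa, 1790 to 2160 in UC7-PBS, 1770 to 2370 CPM in IgG-IFNa and 1730 to 2140 CPM in IgG-PBS. Trac, Trbc1 and Trbc2 averaged 237, 670 and 824 CPM, and Ctla4 was at 119 to 284 CPM. Cd4, the helper co-receptor, was at 1.47 to 5.06 CPM, Cd28 at 0 to 1.65 CPM and Cd8b1, the beta chain of CD8, at 3.88 to 60.6 CPM. Secretory epithelium markers, 6 of 6 in the file, summed to 273 to 957 CPM in UC7-IFNa, 672 to 1720 in UC7-PBS, 460 to 960 CPM for IgG-IFNa and 65.9 to 442 CPM for IgG-PBS. Of these, edgeR called Zg16 and Fcgbp, goblet cell products, higher with IFNa after IgG, and Zg16 higher in both averaged comparisons. Markers of B and plasma cells, 6 of 8 in the file, summed to 324 to 663 CPM over all libraries. Ighm was at 194 to 377 CPM, Cd79b at 52.4 to 116 CPM and Jchain at 8.73 to 49.0 CPM. Igkc was highest in UC7-IFNa library 2 (119 CPM), while Cd79a was at most 1.28 CPM and Mzb1 at most 0.697 CPM. Absorptive enterocyte markers summed to 139 to 278 CPM, myeloid to 107 to 209 CPM and innate lymphoid to 154 to 330 CPM. Of the innate lymphoid list, edgeR called Il7r, a cytokine receptor chain that T cells also carry, lower with IFNa after IgG (log2 fold change -1.46) and in the average over both antibodies (-1.26). The part of these cells in the V segment values was not tested.

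Gamma segments made up most of the V counts in every library. Trgv took 76.2 to 84.1% of all V counts, Trbv 9.02 to 16.6%, Trav 3.77 to 5.53% and Trdv 1.81 to 3.37%. The summed Trgv level was 792 ± 52.4 CPM in UC7-IFNa, 688 ± 62.8 in UC7-PBS, 671 ± 33.0 CPM in IgG-IFNa and 591 ± 66.5 CPM in IgG-PBS (SD, n = 3, 3, 4 and 3). Summed Trdv was 24.5 ± 1.27 CPM in UC7-IFNa, 22.4 ± 8.28 in UC7-PBS, 20 ± 2.48 CPM in IgG-IFNa and 15.5 ± 3.42 CPM in IgG-PBS. UC7-IFNa had the highest mean of both sums and IgG-PBS the lowest. For Trgv every UC7-IFNa library (746 to 849 CPM) was above every library of the other groups (at most 729 CPM). For Trdv every UC7-IFNa library (23.1 to 25.6 CPM) was above every IgG library (at most 23.0 CPM), within the 15.5 to 31.6 CPM of UC7-PBS. All other pairs of groups overlapped in both sums. Summed Trav was 40.3 ± 4.70 CPM in UC7-IFNa, 40.3 ± 6.86 in UC7-PBS, 38.8 ± 5.94 CPM in IgG-IFNa and 37.2 ± 5.32 CPM in IgG-PBS. Summed Trbv was 130 ± 27.1 CPM in UC7-IFNa, 107 ± 21.6 in UC7-PBS, 101 ± 17.1 CPM in IgG-IFNa and 104 ± 19.7 CPM in IgG-PBS. These sums are described without a test.

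The subgroups differed in how steady their leading segment was. The same Trgv and Trdv segments led in almost every library, whereas the leader of Trbv changed. The same Trav segment led too, but only with identical copies counted as separate segments. The effective number of segments in use, the exponential of the Shannon entropy of the shares, was 3.24 ± 0.186 for Trgv, 2.83 ± 0.283 for Trdv, 12 ± 1.08 for Trav and 14.4 ± 1.93 for Trbv (SD, n = 13). It cannot exceed the number of segments, which is 7 for Trgv, 5 for Trdv, 43 for Trav and 22 for Trbv. Lower values for Trgv and Trdv were therefore largely set by their few segments, and the subgroups are not ranked by it. Trdv2-2 led Trdv and Trav15d-1-dv6d-1 led Trav in all 13 libraries, and Trgv7 led Trgv in 12. With the 8 dv segments added to Trdv, 13 segments in all, the effective number was 6.98 ± 0.687. Trdv2-2 then led in 9 libraries and Trav15d-1-dv6d-1 in the other 4. These 8 leave out Trav15n-2, whose symbol has no dv but whose coding part is that of Trav15d-2-dv6d-2. In Trbv, 9 different segments led in at least 1 library, and the most frequent leader, Trbv19, led in 4.

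Trgv7 (ENSMUSG00000076744, mm39 chromosome 13, 19362194 to 19362662, plus strand) was the most abundant V segment per length, at 881 CPM per kb over the 13 libraries. Trgv2 (ENSMUSG00000076754, 19520743 to 19521337, minus strand) followed with 493 CPM per kb, Trgv4 (ENSMUSG00000076745, 19369144 to 19369676) with 156 and Trgv1 (ENSMUSG00000076755, 19524159 to 19524624) with 120. The other gamma segments were far below these: Trgv3 was at 9.24, Trgv5 at 5.05 and Trgv6 at 4.96 CPM per kb. Trgv4 and Trgv1 overlapped in range over the libraries, as did Trgv3, Trgv5 and Trgv6. Of all Trgv counts, Trgv7 took 47.2% on average (35.4 to 55.0%), Trgv2 35.5% (30.6 to 41.3%), Trgv4 9.75% and Trgv1 6.56%.

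Trgv7 was at 378, 459 and 357 CPM in UC7-IFNa, 290, 258 and 350 CPM in UC7-PBS, 307, 344, 356 and 337 CPM in IgG-IFNa, and 311, 240 and 228 CPM in IgG-PBS. After UC7-13D5 every IFNa library was above every PBS library. After IgG the groups overlapped, since IgG-PBS library 1 was above IgG-IFNa library 1. Trgv2 was at 287, 276 and 262 CPM in UC7-IFNa, 231, 294 and 240 CPM in UC7-PBS, 246, 239, 198 and 211 CPM in IgG-IFNa, and 229, 234 and 202 CPM in IgG-PBS. It varied least of the gamma segments, with a coefficient of variation (CV) of 12.5% over the 13 libraries, and all UC7-IFNa libraries were above all IgG-IFNa and all IgG-PBS libraries. Every other pair of groups overlapped.

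**Figure D1:**
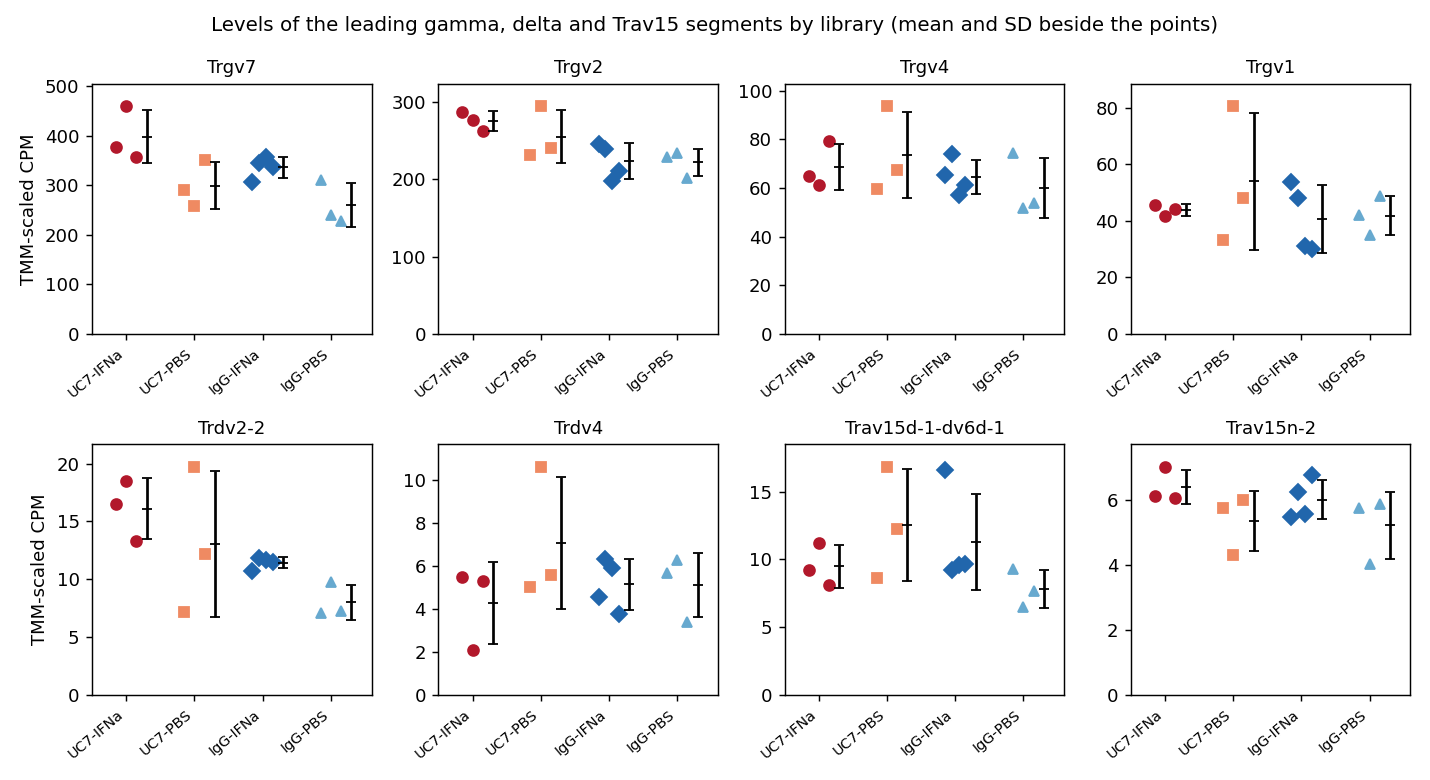
Level of 8 abundant V segments in each library (TMM-scaled CPM, linear axes from 0), for UC7-IFNa, UC7-PBS, IgG-IFNa and IgG-PBS from left to right; the bar beside the points is the mean and SD of the group. Trgv7 in UC7-IFNa lies at 357 to 459 CPM, above the 258 to 350 CPM of UC7-PBS, while UC7-PBS library 2 holds the highest point for Trgv2, Trgv4, Trgv1, Trdv2-2, Trdv4 and Trav15d-1-dv6d-1.

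Trgv4 was at 65.0, 61.3 and 79.2 CPM in UC7-IFNa, 59.7, 93.6 and 67.6 CPM in UC7-PBS, 65.5, 74.1, 57.3 and 61.3 CPM in IgG-IFNa, and 74.4, 51.8 and 54.0 CPM in IgG-PBS. Trgv1 was at 45.5, 41.5 and 44.1 CPM in UC7-IFNa, 33.2, 80.4 and 48.0 CPM in UC7-PBS, 53.8, 48.0, 31.2 and 29.9 CPM in IgG-IFNa, and 41.9, 34.9 and 48.7 CPM in IgG-PBS. The groups overlapped for both, and UC7-PBS library 2 was the highest library for each. That library was also the 1 in which Trgv2, at 40.3% of Trgv counts, led over Trgv7, at 35.4%.

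The scarce gamma segments were each high in 1 or 2 libraries. Trgv5 was at 1.1, 1.34 and 0.866 CPM in UC7-IFNa, 0.432, 0.817 and 11.4 CPM in UC7-PBS, 0.593, 1.08, 0.395 and 0.919 CPM in IgG-IFNa, and 1.66, 1.16 and 0.642 CPM in IgG-PBS. UC7-PBS library 3, with 300 counts, was thus 12.7 times the median of the other 12 libraries. Trgv6 was at 0.867, 7.43 and 1.32 CPM in UC7-IFNa, 0.346, 0.123 and 0.531 CPM in UC7-PBS, 2.18, 3.08, 1.15 and 1.76 CPM in IgG-IFNa, and 0.850, 0.562 and 5.81 CPM in IgG-PBS. Its high libraries, UC7-IFNa library 2 and IgG-PBS library 3, came from groups that share neither antibody nor IFNa. Trgv3 ranged from 1.37 CPM in UC7-IFNa library 3 to 7.98 CPM in IgG-PBS library 1, with a median of 2.81 CPM.

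Levels of the gamma constant genes followed the order of the V segments in their clusters. In mm39, Trgv7, Trgv4, Trgv6 and Trgv5 lie 35.6, 28.6, 23.2 and 21.4 kb before Trgc1, Trgv2 lies 29.0 kb from Trgc2 on the same minus strand, Trgv1 4.1 kb before Trgc4 and Trgv3 17.6 kb before Trgc3. The 4 segments beside Trgc1 summed to 1050 ± 176 CPM per kb against 1800 ± 323 CPM per kb for Trgc1 (SD, n = 13), or 58.2 ± 3.10% of it. Trgv2 reached 46.8 ± 2.98% of Trgc2 (1050 ± 113 CPM per kb) and Trgv1 19.6 ± 3.79% of Trgc4 (605 ± 77.7 CPM per kb). Trgv3, at 9.24 ± 5.00 CPM per kb, was close to Trgc3, at 7.32 ± 2.90. In each library the V level was a smaller part of its constant gene at Trgc4 (13.0 to 27.9%) than at Trgc2 (40.7 to 51.4%) or Trgc1 (52.7 to 62.6%). Trgc1, Trgc2 and Trgc3 are close copies, and their estimated counts were fractional in 13, 10 and 13 libraries, so the split between them is uncertain. Annotated on the opposite strand, the long noncoding RNA gene Gm31887 overlaps Trgv7, Trgv4, Trgv6 and Trgv5. Whether the counting used strand is not given in the sources used here.

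Among delta segments Trdv2-2 (ENSMUSG00000076866, mm39 chromosome 14, 54198401 to 54199059, plus strand) was the highest at 30.4 CPM per kb, followed by Trdv4 at 12.1, Trdv5 at 4.68 and Trdv1 at 2.87. Trdv2-1, a near copy of Trdv2-2 with 92.3% identity, did not pass the filter and was at or below 0.208 CPM in every library. Trdv2-2 was at 16.5, 18.5 and 13.3 CPM in UC7-IFNa, 7.20, 19.7 and 12.2 CPM in UC7-PBS, 10.7, 11.8, 11.7 and 11.5 CPM in IgG-IFNa, and 7.07, 9.75 and 7.21 CPM in IgG-PBS. All UC7-IFNa libraries were above all IgG-IFNa libraries, and all IgG-IFNa libraries above all IgG-PBS libraries, while UC7-PBS spanned nearly the whole range. Trdv2-2 took 57.9% of Trdv counts on average, from 46.5 to 72.1%, and Trdv4 26.7%. Trdv2-2 counts were fractional in 11 libraries, and both Trdv2-1 and Trdv2-2 overlap a long noncoding RNA gene, Gm43647, on the opposite strand. Trdv5 lies on the minus strand, opposite the annotated span of the constant gene Trdc, and its counts were fractional in all 13 libraries, so its level is uncertain.

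Of the Trav segments, the 3 highest per length all belonged to the Trav15 family that delta chains share. Trav15d-1-dv6d-1 (ENSMUSG00000096653, mm39 chromosome 14, 53100756 to 53101393, plus strand) reached 24.7 CPM per kb and 26.1% of Trav counts, and Trav15n-2 and Trav15d-2-dv6d-2, which have the same coding sequence, 14.5 and 13.2 CPM per kb. Trav15d-1-dv6d-1 was at 9.18, 11.2 and 8.07 CPM in UC7-IFNa, 8.60, 16.8 and 12.2 CPM in UC7-PBS, 16.6, 9.24, 9.60 and 9.65 CPM in IgG-IFNa, and 9.28, 6.50 and 7.63 CPM in IgG-PBS. UC7-PBS library 2 and IgG-IFNa library 1 were the high ones, and the groups overlapped. Trav13-4-dv7 came next at 6.50 CPM per kb, and Trav14n-1 was at 5.41 CPM per kb. When the 8 dv segments were added to Trdv, the summed level was 48.2 ± 3.55 CPM in UC7-IFNa, 45.7 ± 13.4 in UC7-PBS, 42.8 ± 2.95 CPM in IgG-IFNa and 36.2 ± 5.50 CPM in IgG-PBS. The 8 were chosen by symbol. They hold Trav15d-2-dv6d-2 (mean 5.25 CPM) and leave out its copy Trav15n-2 (5.78 CPM), so the sum depends on how reads were split between them. The constant gene Trdc averaged 188 CPM and Trac 237 CPM, or 48.7 and 253 CPM per kb. The transcript length used was 3865 bases for Trdc and 935 for Trac, so the gap per kb rests mostly on these lengths.

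The leading Trbv segments, on mouse chromosome 6, differed little in mean level but much between libraries. Trbv13-1 had the highest mean per length, 26.2 CPM per kb. Trbv16 was at 25.4, Trbv17 at 24.0, Trbv15, named after its values were seen, at 22.1, Trbv19 at 21.8 and Trbv3 at 20.1 CPM per kb. The ranges of these 6 over the libraries overlapped. Trbv13-1 (ENSMUSG00000076467, mm39 chromosome 6, 41092941 to 41093402, plus strand) was at 5.24, 12.6 and 50 CPM in UC7-IFNa, 2.94, 1.96 and 3.87 CPM in UC7-PBS, 4.67, 3.86, 14.6 and 7.20 CPM in IgG-IFNa, and 4.43, 5.46 and 7.97 CPM in IgG-PBS. In UC7-IFNa library 3 it held 39.1% of all Trbv counts, against 1.51 to 12.6% in the other 12 libraries. Other segments were high elsewhere: Trbv19 reached 34.5 CPM in UC7-IFNa library 2 against a median of 9.16 CPM in the rest, Trbv17 29.1 CPM in UC7-PBS library 1 against 7.11, and Trbv3 23.3 CPM in UC7-PBS library 2 against 7.26. Named after their values were seen, Trbv1 reached 25.9 CPM in UC7-IFNa library 1, Trbv4 21.8 CPM in IgG-IFNa library 1 and Trbv20 14.4 CPM in IgG-PBS library 1. Trbv4 overlaps the long noncoding RNA gene 5830405F06Rik on its own strand. Its counts were fractional in all 13 libraries, so its level is uncertain. The beta constant genes were at 909 (Trbc1) and 1190 (Trbc2) CPM per kb. UC7-IFNa library 2, with the highest Trbv sum (158 CPM), also had the highest Trac, Trbc2 and Cd8b1 levels (480, 1390 and 60.6 CPM). Other genes of the alpha beta list did not follow. Ctla4 (119 CPM) and Cd28 (0 CPM) were at their lowest there. Cd4, Cd5, Cd6 and Themis were below their means over the libraries, and Trbc1 (750 CPM) was above its mean. Trgc1 (2420 CPM) and Cd3g (4310 CPM) were also highest in this library. The part of other T cells in these values was not tested.

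**Figure D2:**
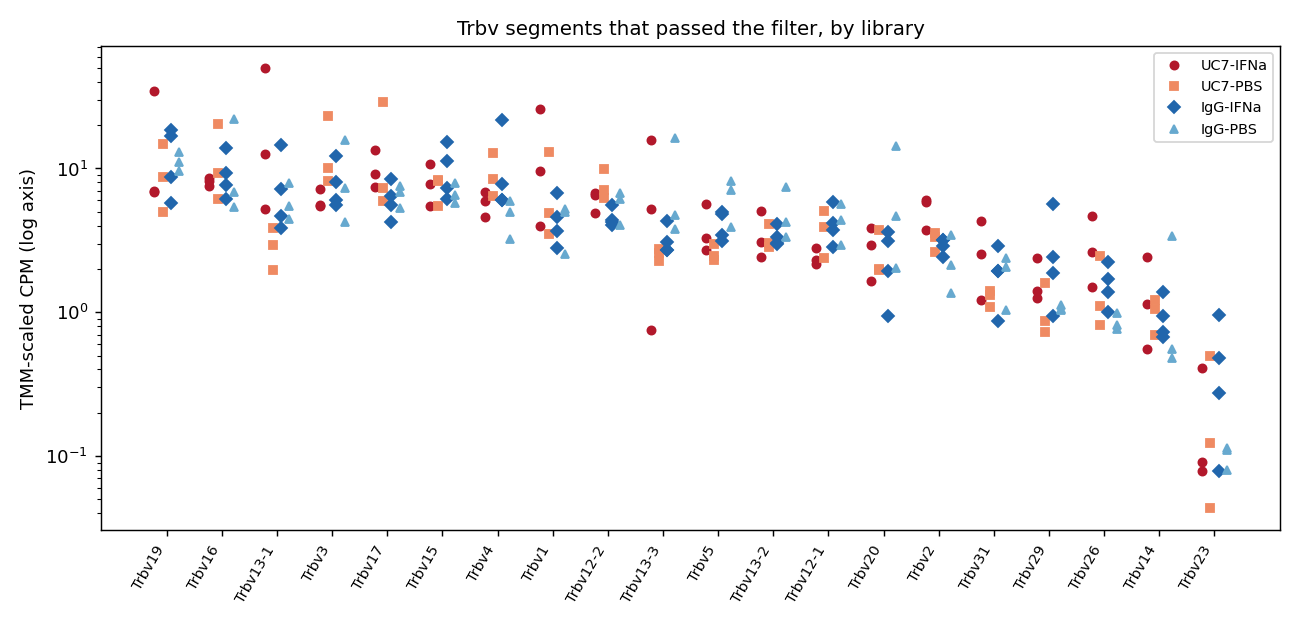
Levels of the 20 Trbv segments that passed the filter, in order of mean CPM (TMM-scaled CPM, log axis); each point is 1 library, and for each segment UC7-IFNa, UC7-PBS, IgG-IFNa and IgG-PBS run from left to right. Single points far above the rest belong to different groups for different segments, as for Trbv13-1 (50 CPM, UC7-IFNa), Trbv17 (29.1 CPM, UC7-PBS), Trbv4 (21.8 CPM, IgG-IFNa) and Trbv20 (14.4 CPM, IgG-PBS).

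The spread of the tested segments differed by subgroup, and its peaks fell on different libraries. The median CV over the 13 libraries was 29.2% for Trgv, 39.2% for Trdv, 46.4% for Trav and 63.0% for Trbv, beside 23.9% over all 15835 genes tested. In 17 of the 48 segments (35.4%) the highest library was at least 3 times the median of the other 12, beside 8.32% of all genes tested. They were 3 Trgv, 0 Trdv, 2 Trav and 12 Trbv segments. Restricted to a mean of 1 to 15 CPM, they were 15 of 34 V segments (44.1%) and 5.72% of 4840 genes. By subgroup these were 3 of 3 Trgv, 0 of 3 Trdv, 1 of 9 Trav and 11 of 19 Trbv. At that level the median CV was 111% for Trgv, 37.1% for Trdv, 30.5% for Trav and 62.1% for Trbv, beside 29.7% for the genes. The median CV of these 9 Trav segments was thus close to that of other genes of like level, and 11.1% of them had such a peak. They include identical copies whose reads may have been split, and Trav segments below 1 CPM were not set against genes of like level. The peaks lay in 12 of the 13 libraries, with 4 in IgG-PBS library 1, 3 in UC7-IFNa library 2, none in IgG-IFNa library 2 and 1 in each of the rest. Trav17 could not be counted because its median was 0: it reached 2.86 CPM in UC7-PBS library 2, was listed at 0 in 7 libraries and is named after its values were seen. The 29 segments that did not pass the filter, 26 of them Trav, averaged 0.0302 to 0.215 CPM, and 26 of the 29 were at 0 in at least 1 library.

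Interferon alpha was compared with PBS to ask how the cells respond to it, within each antibody and averaged over both. Testing used edgeR's quasi-likelihood test with Benjamini-Hochberg adjustment over all 15835 genes at 0.05. After IgG, 0 of 48 V segments were called, where 0.827% of all genes were called, and 6 had an unadjusted p under 0.05 (12.5%, beside 10.9% of all genes). After UC7-13D5, 0 of 48 were called (0.36% of all genes called), and 10 had an unadjusted p under 0.05 (20.8%, beside 7.59%). Averaged over both antibodies, 1 of 48 was called, where 1.99% of all genes were called. Of the 48, 11 had an unadjusted p under 0.05 (22.9%, beside 14.8%). The median log2 fold change of the V segments was -0.03 after IgG, 0.27 after UC7-13D5 and 0.06 when averaged. With DESeq2 the counts were 0 (2.72% of all genes called), 1 (0.909%) and 3 (4.91%).

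The 1 segment called by edgeR was Trav14-3 (ENSMUSG00000094212, mm39 chromosome 14, 54000630 to 54001151, plus strand), lower with IFNa on very few counts. It had 0, 0 and 1 counts in UC7-IFNa, 5, 9.74 and 4 in UC7-PBS, 1, 8, 2 and 3 in IgG-IFNa, and 25, 9 and 19 in IgG-PBS. Only PBS libraries carried it past the filter: IgG-PBS libraries 1 and 3, and UC7-PBS library 2, whose 9.74 was rounded to 10. The segment was thus tested because it was high with PBS, and a lower value with IFNa was favoured beforehand. Its call and the lack of overlap are therefore no independent evidence of a change. The groups did not overlap within either antibody, although IgG-IFNa library 2, at 0.297 CPM, was above 2 of the UC7-PBS libraries. The averaged log2 fold change was -2.98, with an SE of 0.67 and an adjusted p of 0.0303 in edgeR. UC7-IFNa held a single count, so this fitted value is no bound. As a ratio of pooled CPM, UC7-IFNa was 0.0603 times UC7-PBS (exact 95% interval 0.00145 to 0.38) and IgG-IFNa 0.2 times IgG-PBS (0.102 to 0.365), intervals that cover counting error only. A count of 0 allowed up to 0.118 CPM in UC7-IFNa library 1 and 0.174 CPM in library 2. Leaving out 1 library at a time kept the call in 4 of 13 omissions and lost it in 9, with adjusted p between 0.0182 and 0.101. It was also lost with a covariate for sex-linked transcripts (edgeR adjusted p = 0.109) and without IgG-IFNa libraries 3 and 4 (adjusted p = 0.151).

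Trgv7 was higher with IFNa in mean, at 398 ± 53.7 CPM in UC7-IFNa against 299 ± 47.0 in UC7-PBS and at 336 ± 21 CPM in IgG-IFNa against 260 ± 45.1 in IgG-PBS. Its averaged log2 fold change of 0.39 (SE 0.11) did not pass in edgeR (adjusted p = 0.10) and passed in DESeq2 (adjusted p = 0.0266). Without UC7-IFNa library 2, which stood apart in ribosomal RNA, it was 0.33 (edgeR adjusted p = 0.0664). As a share of Trgv counts, Trgv7 was at 48.4, 54.0 and 47.9% in UC7-IFNa, 47.0, 35.4 and 48.6% in UC7-PBS, 45.3, 48.1, 55.0 and 52.3% in IgG-IFNa, and 46.7, 42.4 and 42.0% in IgG-PBS. The mean share was 6.45 percentage points higher with IFNa, with overlap of the groups within each antibody (exact two-sided permutation test within antibody, 700 permutations, p = 0.0257, adjusted over 8 share tests p = 0.206). The shares of Trdv2-2 and Trbv13-1 with IFNa differed by 7.22 points (adjusted p = 0.266) and 7.8 points (adjusted p = 0.266) in the same permutation test, and that of Trav15d-1-dv6d-1 by 0.341 points (adjusted p = 0.986). Trbv13-1 was chosen for its mean per length, to which UC7-IFNa library 3 added most (50 CPM, against a median of 4.95 in the other 12). A higher share with IFNa was therefore favoured beforehand.

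**Figure D3:**
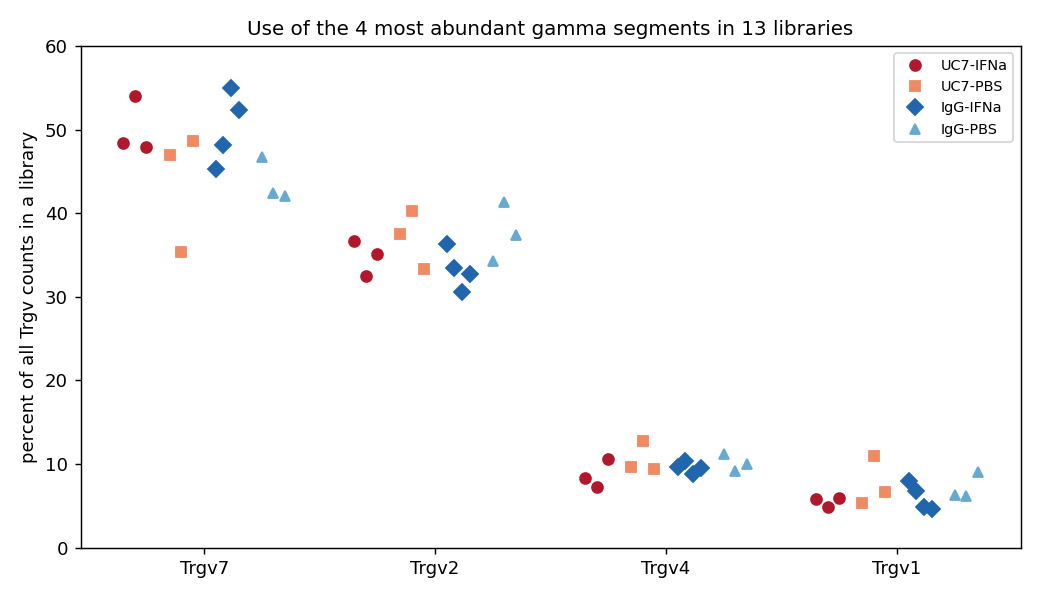
Share of each library's Trgv counts taken by the 4 most abundant gamma segments (percent, linear axis from 0); each point is 1 library, with UC7-IFNa, UC7-PBS, IgG-IFNa and IgG-PBS from left to right. Trgv7 lies between 35.4 and 55.0% and Trgv2 between 30.6 and 41.3%, and the 2 cross only in UC7-PBS library 2.

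Of the other gamma segments, Trgv2 and Trgv4 had averaged log2 fold changes with IFNa of 0.06 (SE 0.10) and -0.00 (SE 0.13), Trgv1 of -0.17 (SE 0.19) and Trgv3 of -0.09 (SE 0.33). The signs of Trgv4, Trgv1 and Trgv3 turned when single libraries were left out. Trgv5 and Trgv6 had -1.28 (SE 0.59) and 1.49 (SE 0.62), and these values rest on their high libraries: Trgv5 was at 0.09 without UC7-PBS library 3, and Trgv6 at 0.72 without UC7-IFNa library 2 and 2.37 without IgG-PBS library 3. Among delta segments the averaged log2 fold changes were 0.41 (SE 0.19) for Trdv2-2, -0.35 (SE 0.26) for Trdv4, 0.60 (SE 0.30) for Trdv5 and 0.97 (SE 0.36) for Trdv1. None of these passed edgeR's test. Trbv13-1 was 2.95 log2 units higher with IFNa after UC7-13D5 (SE 0.69, edgeR adjusted p = 0.13, DESeq2 adjusted p = 0.018), with no overlap between the groups. It was 1.60 without UC7-IFNa library 3, and it passed edgeR's test without UC7-IFNa library 1 (3.42, adjusted p = 0.0169). Because its high value in UC7-IFNa library 3 helped to single it out, these values are no independent evidence of a change. Averaged over both antibodies Trbv13-1 was at 1.65 (SE 0.46, edgeR adjusted p = 0.0861, DESeq2 adjusted p = 0.0364), 0.97 without UC7-IFNa library 3 and 1.88 without UC7-IFNa library 1 (edgeR adjusted p = 0.0185). Beside these values, Cd6, a surface receptor of T cells on the alpha beta list, was the 1 of its 10 genes called after IgG, at -1.32 on the log2 scale (SE 0.29, edgeR adjusted p = 0.0468). The part of other T cells in the Trbv values was not tested.

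UC7-13D5 was compared with IgG to ask what binding of the gamma delta receptor does, and no V segment passed edgeR's test. With PBS, 0 of 48 were called (0.00632% of all genes), and 10 had an unadjusted p under 0.05 (20.8%, beside 5.0% of all genes). With IFNa, 0 of 48 were called (0.0758% of all genes), and 6 had an unadjusted p under 0.05 (12.5%, beside 7.19%). Averaged over PBS and IFNa, 0 of 48 were called (0.657% of all genes) and 10 were under 0.05 unadjusted (20.8%, beside 8.06%). DESeq2 called 1, 0 and 0 V segments in these comparisons, where it called 0.436%, 0.773% and 1.87% of all genes. The 1 was Trbv5, named after its values were seen, at 2.45, 2.31 and 2.98 CPM in UC7-PBS and 8.21, 3.92 and 7.07 CPM in IgG-PBS. These groups did not overlap (log2 fold change -1.31, SE 0.34, edgeR adjusted p = 0.392, DESeq2 adjusted p = 0.0424). Trbv5 overlaps the long noncoding RNA gene 5830405F06Rik on its own strand, and its counts were fractional in all 13 libraries.

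The 4 abundant gamma segments each had a small positive averaged log2 fold change with UC7-13D5, none of which passed edgeR's test: 0.22 for Trgv7 (SE 0.11, adjusted p = 0.668), 0.25 for Trgv2 (SE 0.10, adjusted p = 0.48), 0.19 for Trgv4 (SE 0.13) and 0.23 for Trgv1 (SE 0.19). The scarce ones had larger values with wider errors, at -0.62 for Trgv3 (SE 0.33), 1.21 for Trgv5 (SE 0.59) and -1.10 for Trgv6 (SE 0.61). Trgv5 turned to -0.17 without UC7-PBS library 3, Trgv3 was at -0.29 without IgG-PBS library 1, and Trgv6 was at -0.22 without IgG-PBS library 3 and -1.87 without UC7-IFNa library 2. Trdv2-2 had the highest value of the delta segments, 0.60 (SE 0.19, edgeR adjusted p = 0.282), or 0.38 without UC7-PBS library 2. Trdv4, Trdv5 and Trdv1 were at 0.11 (SE 0.26), 0.20 (SE 0.30) and -0.22 (SE 0.35). The share of Trgv7 among Trgv counts differed by -0.0693 percentage points between the antibodies (exact two-sided permutation test within IFNa and PBS, p = 0.986), and adjusted p-values for the shares of Trdv2-2, Trav15d-1-dv6d-1 and Trbv13-1 were 0.266, 0.805 and 0.983 in the same test. These missed thresholds do not show that use was alike under both antibodies.

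**Figure D4:**
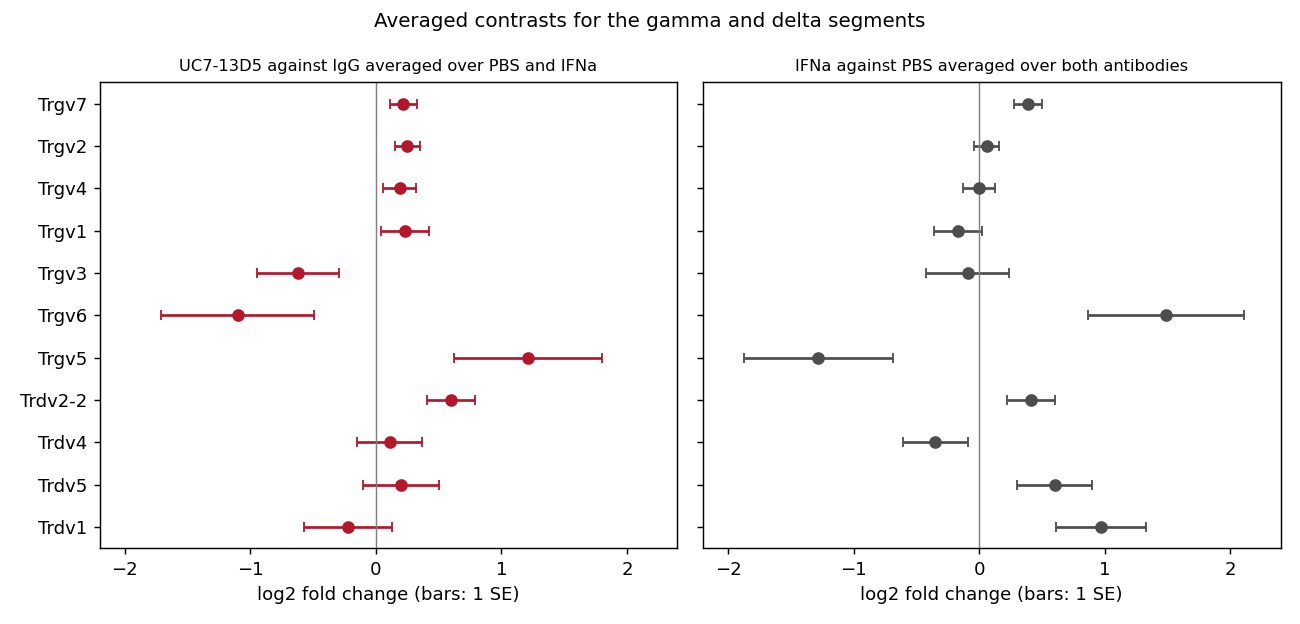
Averaged log2 fold changes of the 11 gamma and delta segments that passed the filter, UC7-13D5 against IgG on the left and IFNa against PBS on the right; points are edgeR estimates over 13 libraries and bars are 1 SE. The abundant Trgv7, Trgv2, Trgv4 and Trgv1 lie between -0.17 and 0.39, and Trgv5 and Trgv6, each high in single libraries, lie furthest from 0.

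Whether the IFNa response of the V segments depended on the antibody was tested by the interaction term. In edgeR 0 of 48 V segments passed, where 0% of all genes were called, and 8 had an unadjusted p under 0.05 (16.7%, beside 3.17% of all genes). DESeq2 called 0 V segments and 0.0316% of all genes. In the genes that build and join the receptor, namely constant regions, CD3 chains, recombination and end-joining factors, 20 of 22 listed genes were in the file and 19 were tested. The recombination genes Rag1 and Rag2 were missing, and Dntt averaged 0.0324 CPM. None of the 19 passed edgeR's test in any of the 7 comparisons, in which 0 to 1.99% of all genes were called. The file had 2 V pseudogenes, Trav8-2 and Trbv24, 8 constant genes and no joining or diversity segments.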

How the data were processed

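The authors deposited a table of estimated counts per gene, not scaled between libraries, and a normalized signal per gene; STAR 2.7.8a, Partek, DESeq2 and mm39 are named in the submitters' processing notes without their roles. Reads spanning joined segments, and multi-mapped reads, may be lost or split by such counting; how they were treated is not given in the sources used here. V segments were the rows of biotype TR_V_gene. Members and lists were chosen with earlier results of these data known.

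Counts were rounded, filtered with filterByExpr (minimum count 10) and scaled by TMM, and 1 model over 13 libraries was fitted with edgeR 4.0.16 (R 4.3.3) by robust quasi-likelihood, two-sided, with Benjamini-Hochberg adjustment. Shares of the leading segment of each subgroup (highest CPM per kb) were compared by exact permutation within strata; the smallest p possible is 0.00143. Lengths and sequences came from GENCODE M21 transcripts, matched by identifier; positions are the file's own, in mm39. Alternatives were DESeq2 1.42.0, limma 3.58.1 on log2 of the deposited signal plus 1, other filters and scalings, a replicate block, a covariate for sex-linked transcripts and left-out libraries. The procedure was tested on simulated data.

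Named segments were those called, the 5 highest of each subgroup by mean CPM and every Trgv and Trdv. Titles number biological replicates, but nothing says whether a library was 1 mouse, so p-values measure the spread between these libraries. Library totals of 19867201 to 26895876 counts limit the precision of scarce segments.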

Additional observations from a re-analysis of the deposited data

Results flagged for a closer look

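Trav15d-1-dv6d-1 was at 16.6 CPM in IgG-IFNa library 1, apart from the 9.24, 9.60 and 9.65 CPM of the other 3 libraries of that group. The gap to the nearest library was 0.945 of the group's range, above Dixon's 95% critical ratio for 4 libraries. Of the 22 named segments checked in this group it was the 1 that exceeded that ratio, and chance alone exceeds it in about 5% of groups. Only IgG-IFNa has enough libraries for this check.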

How the results depend on the processing

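In the average over both antibodies, the count of V segments called for IFNa was 1 with edgeR and 3 with DESeq2 (Trav14-3, Trbv13-1 and Trgv7). It was 0 with a covariate for sex-linked transcripts or without IgG-IFNa libraries 3 and 4. It was also 0 with a minimum count of 50 and with limma on the normalized table, which tested 34 and 30 V segments and left Trav14-3 out by construction. It ranged from 0 to 1 over the 13 single omissions, with 0 in 8 and 1 in 5. For IFNa after UC7-13D5 the count was 1 with DESeq2 and 0 to 1 over the omissions, and for UC7-13D5 with PBS it was 1 with DESeq2. Replicate numbers did not pair the libraries: of 18 same-numbered pairs, 3 correlated above 0.1 (-0.362 to 0.232), and 1 of 13 libraries correlated best with its own number. With the replicate block the averaged IFNa count was 0, with Trav14-3 at -3 (adjusted p = 0.112), and Trgv4 was at 0.01. The averaged IFNa value of Trgv4 also turned positive with limma (0.01), with the sex-linked covariate (0.05) and without IgG-IFNa libraries 3 and 4 (0.06), and that of Trgv3 under the last 2 of these (0.03 and 0.02). The UC7-13D5 difference in the Trgv7 share turned to 1.67 points without IgG-IFNa libraries 3 and 4. Over single omissions the Trgv7 share difference for UC7-13D5 ran from -1.31 to 2.00 points, that of Trav15d-1-dv6d-1 for IFNa from -0.762 to 1.71 and that of Trbv13-1 for UC7-13D5 from -1.91 to 6.6. The causes were not tested. Over single omissions the averaged IFNa values ran from -0.07 to 0.11 for Trgv4, -0.30 to 0.03 for Trgv1, -0.28 to 0.24 for Trgv3 and -1.55 to 0.09 for Trgv5, and the averaged UC7-13D5 values from -0.17 to 1.46 for Trgv5, -0.10 to 0.26 for Trdv4 and -0.05 to 0.36 for Trdv5. Of the recomputed counts of called segments, 134 kept their value and 17 did not. Segments with few counts, such as Trav14-3, are limited by depth.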
